A study of Arabidopsis thaliana and Lactuca sativa with 158 samples.

Results

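AGL20 (AT2G45660) is also known as SOC1 or SUPPRESSOR OF OVEREXPRESSION OF CO 1. The gene is 1 of 86 targets listed across the Arabidopsis and lettuce libraries together, whose probe-captured cDNA was sequenced on nanopores. It was picked as a single row of the deposited tables, and it was chosen by measured values of these same libraries: its level, the spread of that level between lines, and its pA and antisense shares. Those values are therefore described here without a test between groups. The gene is listed in all 158 libraries of the series, of which 122 are from Arabidopsis thaliana Columbia-0 and 36 from lettuce.

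AGL20 encodes a MADS-box transcription factor of the flowering network. It is known as an integrator: the photoperiod pathway raises it through CONSTANS and FT, the repressor FLC holds it down, and gibberellin and plant age also act on it. In the shoot apex it works with AGL24 to switch on LEAFY at the floral transition, and its transcript is also found in leaves. A list of 37 other flowering genes drawn up for comparison had 0 members among the targets, so AGL20 is the sole gene of that list's network measured here. Lists of leaf photosynthesis markers and floral organ markers likewise had 0 members among the targets, and the labelled tissues could not be checked against them.

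Inflorescence libraries were made from immature flower buds of ddm1 (n = 3), polv (n = 3), a poliv/polv double mutant (n = 1) and Col-0 (n = 3). DDM1 is a chromatin remodeller that maintains DNA methylation, and Pol IV and Pol V are RNA polymerases of RNA-directed DNA methylation. These samples are labelled as carrying 35S::RUBY, although their tables hold no RUBY target. Leaf libraries came from 4-week-old plants carrying RUBY, a transgene that colours tissue red through betalain synthesis, and were named by the colour of the tissue. With the viral 35S promoter in the Col-0 genotype, leaves were green parts (n = 13), red parts (n = 13), fully green (n = 9), fully red (n = 13), always green (n = 2) and always red (n = 11). Always red leaves with 35S::RUBY were also taken from dcl1234 plants (n = 8), which are named for the DICER-LIKE enzymes that cut small RNAs. With the maize ubiquitin promoter (ZmUBQ) leaves were fully green (n = 9), fully red (n = 9) and always red (n = 4). For the construct RUBY_3Q there were always green (n = 3), fully green (n = 2), fully red (n = 2) and always red (n = 3) leaves, all of line SL2621, and for RUBY_fs always green leaves (n = 6) of line SL2622. The labels do not say how these 2 constructs differ from RUBY. Single libraries labelled T1 and 1 green Col-0 leaf library completed the set. All plants grew in long days, a light regime under which AGL20 is known to be active. Lines are named by MK or SL numbers, and nothing in the labels says whether replicates of a line are separate plants, so spreads may be partly technical. These are bulk samples, in which fewer cells expressing AGL20 and less AGL20 RNA per cell cannot be told apart.

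The unit of every level is the deposited normalised signal. In each of the 122 Arabidopsis libraries every value was a whole multiple of 1 step, and 1000000 divided by that step was a whole number within the rounding, so that the signal behaves as reads scaled to 1000000 of a total between 180575 and 4122588 in leaf. On this scale AGL20 rested on 7084 to 155978 reads per leaf library, and on 264 to 4898 full-length reads after collapse by molecular identifier. In inflorescence it rested on 7213 to 41234 reads, or 513 to 1699 after collapse. Counting error is small at these depths, and the spread between libraries sets the precision. RUBY is given on the same scale and differed with colour and construct. Its signal was 84175 to 243154 in fully green and 180111 to 591756 in fully red 35S leaves, and 252760 to 831400 in RUBY_fs leaves. If the total counts RUBY reads, deposited AGL20 levels depend in part on how much RUBY a library holds. This was not tested.

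The 35S leaf tables of the Col-0 genotype carry running numbers, and many of these numbers occur in more than 1 library. The libraries were therefore divided here into 2 sets by line and number. Lines MK041 to MK045 and numbers above 31 made up the second set, and the rest the first. This division is inferred. The first set holds 21 RUBY libraries (lines MK010, MK040 and the lower-numbered replicates of MK016, MK017 and MK034), and the second holds 40 (lines MK025 and MK041 to MK045, and the higher-numbered replicates of MK016, MK017 and MK034). AGL20 signals of the 2 sets lay apart in every colour group that has at least 4 libraries of each. In always red leaves it was 75050 to 153830 in the second set (median 131965, n = 7), against 23622, 24286, 26056 and 29451 in the first. The mean difference there was 2.20 ± 0.16 (SE) on the log2(signal + 1) scale, or 4.61-fold. The sets also did not overlap in red parts (3.39-fold), green parts (3.94-fold), fully red leaves (4.23-fold) or fully green leaves (4.23-fold).

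Many other targets moved with the same numbers. Signals did not overlap between the second and the first set for 45.8% of tested targets in always red leaves, 27.9% in red parts, 41.9% in green parts, 22.6% in fully red and 53.3% in fully green leaves. The median difference of the other targets was 1.12 to 1.54 across these 5 groups, against 1.76 to 2.20 for AGL20. Once each library was centred on the median of its protein-coding targets, the AGL20 difference was 1.56 ± 0.24 in always red leaves, where the sets still did not overlap, as for 18.6% of targets on that scale. It was 0.47 to 0.78 in the other 4 groups, and there the sets overlapped. The summed signal of protein-coding targets was 345978 ± 82392 in the second set (SD, n = 40) and 134172 ± 44249 in the first (SD, n = 21). That sum includes AGL20 itself, so part of its difference is AGL20's own. What the numbers stand for is not given in the sources used here.

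Lines found in both sets differed in the same direction. MK016 ran from 105071 to 168526 in the second set (n = 4) and from 8598 to 44634 in the first (n = 10), a 5.73-fold difference of the log-scale means. MK034 always red leaves had 153830 in the second set and 29451 in the first, and MK017 always green leaves had 73000.1 in the second set and 10564 in the first. For lines found in 1 set alone, line and numbering set cannot be told apart.

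**Figure D1:**
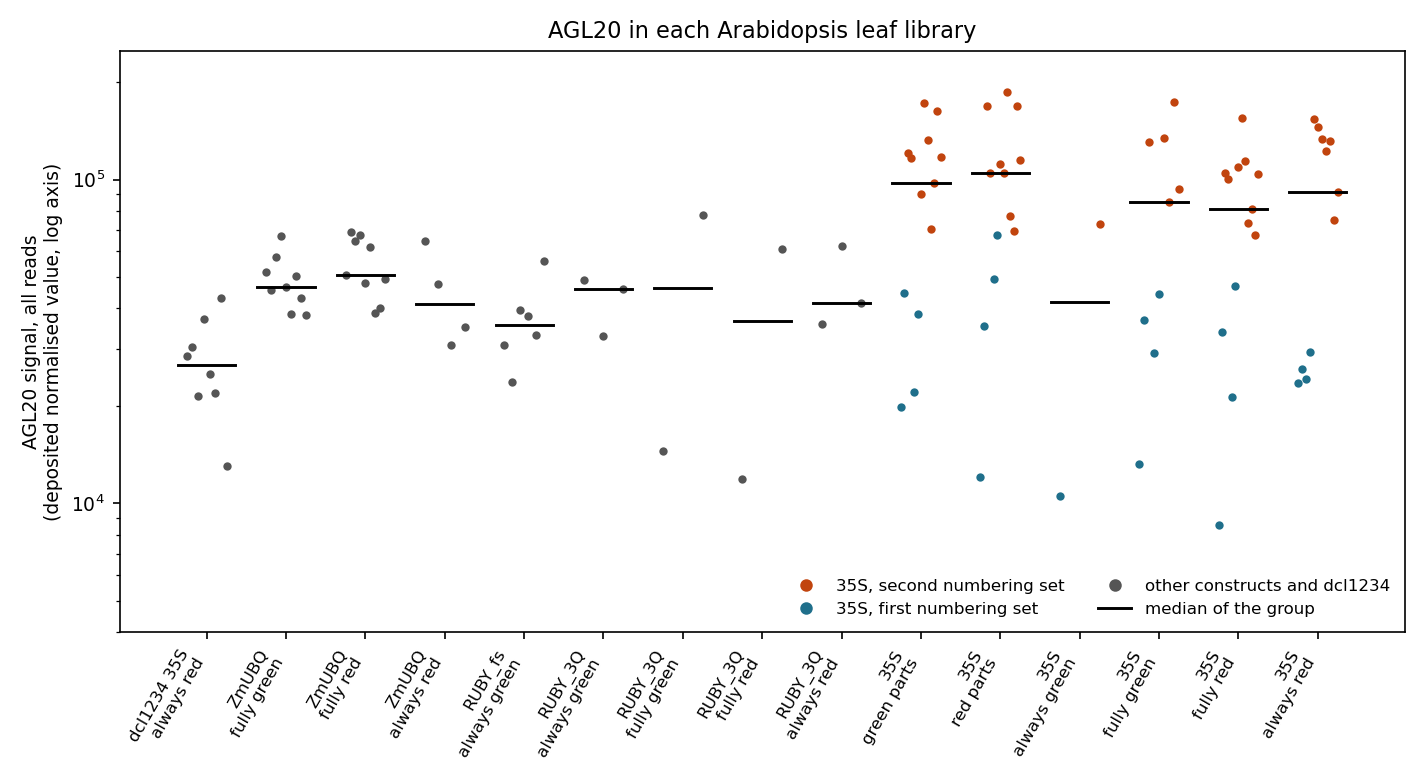
AGL20 signal in all reads (log axis) for each leaf library, by group along the horizontal axis; points are libraries, coloured by numbering set for 35S, and bars are group medians. Within each 35S group of more than 2 libraries, every library of the second set lies above every library of the first, while ZmUBQ libraries lie between 30857 and 69115.

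Within the second set, lines differed less. Among lines with more than 1 library in the set MK043 was the lowest, with 69611 to 97707 (median 77298) over its 7 libraries. MK042 had 114316 to 186430 (median 133802, n = 6) and did not overlap with it as deposited. On the scale centred on protein-coding targets these lines overlapped, at 5.02 to 6.12 in MK043 and 5.61 to 6.46 in MK042. The share of targets whose signals lie apart between these lines was not computed. MK044 spanned 67314 to 173397 over 6 libraries, and the lowest of these was also the lowest of the set. The SD of log2 signal among libraries sharing a line and number was 0.32, and the SD of the means of these 9 units was also 0.32. In ZmUBQ leaves the same 2 values were 0.25 and 0.24 over 9 units. Means vary less than single libraries, so equal values do not show that units differ only as much as the tissues within them. In the first set the values were 0.42 within 4 units and 0.83 between their means.

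Green parts and red parts of the same lines address how tissue without and with pigment compare. AGL20 ran from 19885 to 171830 in green parts (median 97707) and from 12028 to 186430 in red parts (median 104484). The ranges overlapped almost fully, and the mean difference was -0.08 ± 0.42 (SE, n = 13 each) on the log2(signal + 1) scale. Signals did not overlap for 1.75% of the 57 tested targets. Between libraries sharing a line and number the difference averaged -0.08 ± 0.57 (SD, n = 13), and AGL20 was above its partner in the green part in 6 of 13 pairs. The 2 largest pair differences were both below 0 and from line MK040: replicate 1 had 22058 in green and 49169 in red parts, and replicate 2 had 38438 in green and 67361 in red parts. The next in size was above 0, with 19885 in green and 12028 in red parts of MK016 replicate 3. Within numbering sets the differences were -0.01 ± 0.21 (second set, n = 9 each) and -0.23 ± 0.61 (first set, n = 4 each).

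The median difference of the other targets between green and red parts was 0.31, and that of the protein-coding targets 0.39. On the scale centred on protein-coding targets the mean AGL20 difference was therefore -0.48, and the green part was above its partner in 3 of 13 pairs. The centred groups overlapped.

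Fully green leaves had AGL20 signals of 13229 to 173397 (median 85103, n = 9), and fully red leaves 8598 to 154625 (median 81373, n = 13). The groups overlapped throughout, and the mean difference was -0.00 ± 0.52. No tested target of 60 (0%) had groups that did not overlap. The fully red group holds a larger part of second-set libraries, and the value depended on this: within the second set the difference was 0.28 ± 0.22 (n = 5 and 9), and within the first 0.28 ± 0.66 (n = 4 each). Among the 9 pairs sharing a line and number, AGL20 was above its partner in the fully green leaf in 7, with a mean of 0.34 ± 0.45 (SD). MK044 replicate 3 had the largest difference, with 173397 in the fully green and 67314 in the fully red leaf. Centring turned the direction: the mean pair difference became -0.36, and 1 of 9 pairs was above 0.

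ZmUBQ leaves carry 1 run of table numbers, and here too the colours overlapped. Fully green leaves had 38281 to 67012 (median 46601, n = 9), and fully red leaves 38639 to 69115 (median 50674, n = 9). The difference was -0.15 ± 0.14, and 1.96% of 51 targets did not overlap. In the table of collapsed full-length reads the difference had the other sign, 0.23. Always red ZmUBQ leaves had 30857, 35010, 47488 and 64730, so that fully red leaves exceeded them by 0.32 ± 0.26, again with overlap (3.51% of 57 targets did not overlap). The 10 libraries of line MK056 had a median of 39385, against 51231 in MK054 and 60977 in MK055 (n = 6 each).

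**Figure D2:**
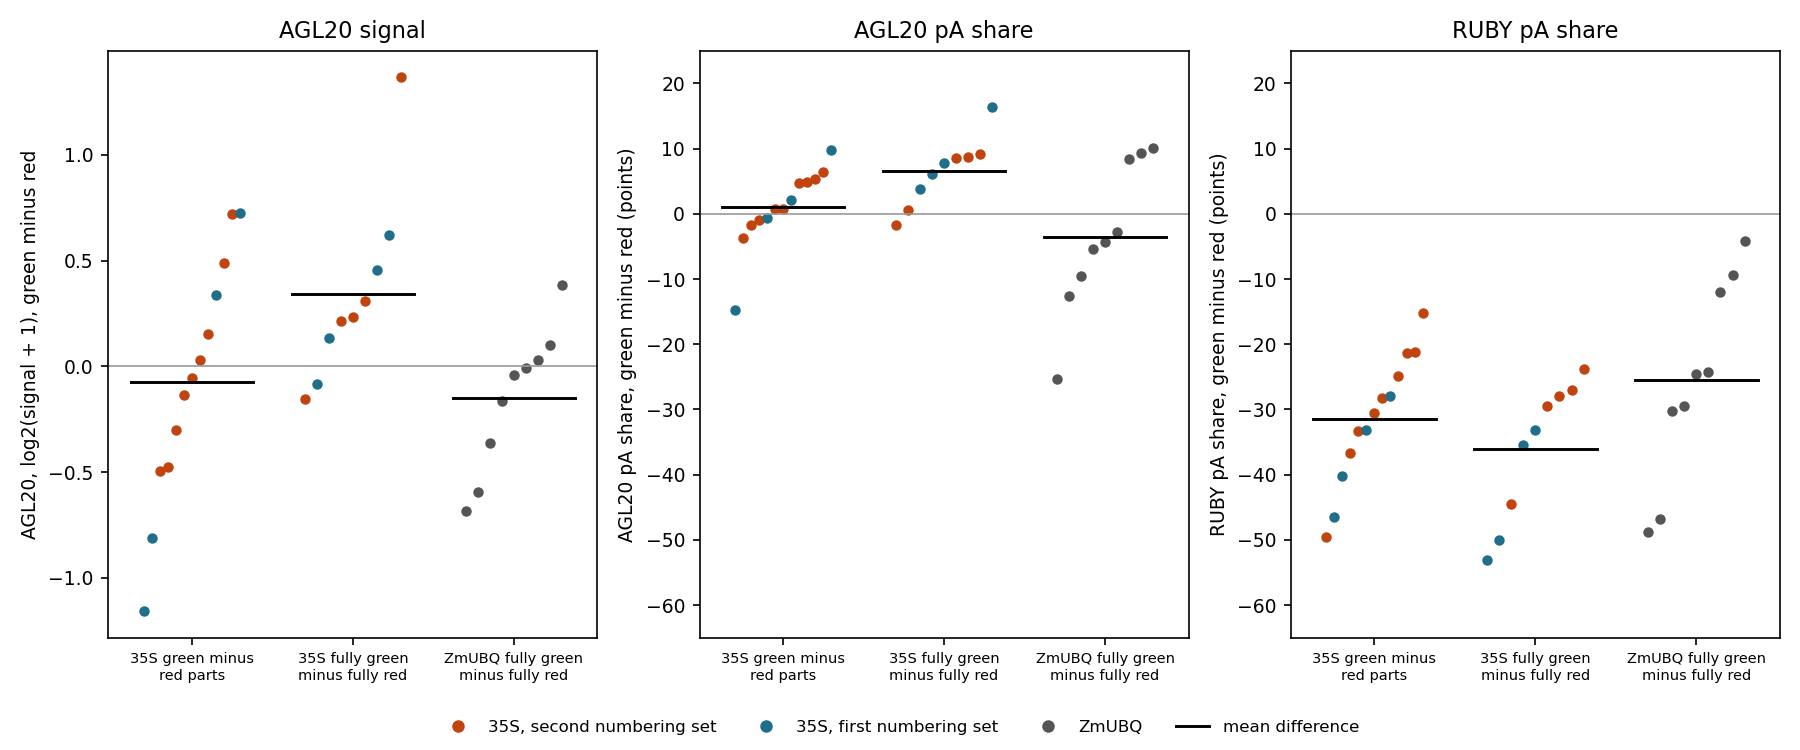
Differences, green minus red, between libraries sharing a line and number, for AGL20 signal (left, log2 scale), AGL20 pA share (middle, percentage points) and RUBY pA share (right, percentage points); each point is a pair and each bar the mean. AGL20 differences fall on both sides of 0 in each comparison, while all RUBY pA shares are lower in green tissue.

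The 2 kinds of wholly red 35S leaves overlapped. AGL20 was 8598 to 154625 (median 81373, n = 13) in fully red leaves and 23622 to 153830 (median 91343, n = 11) in always red leaves, a difference of -0.11 ± 0.48 with overlapping groups (0% of 58 targets did not overlap). The same difference was -0.27 ± 0.19 in the second set (n = 9 and 7). Always green leaves came from 1 line, MK017, with 10564 in the first set and 73000.1 in the second. Each lay below the always red libraries of its own set, whose lowest values were 23622 in the first and 75050 in the second, but 64.2% of 67 targets in the first set and 47.9% of 73 in the second also lay apart from the always red libraries. On the centred scale the second-set library was above all 7 always red libraries, at 6.86 against 5.37 to 6.82, and the first-set library below all 4, at 4.09 against 4.24 to 4.92. Pooled, the groups overlapped and the difference was -1.29 ± 1.44, with 13.9% of 72 targets not overlapping. The pooled centred difference was -0.12 ± 1.41. The always red 35S libraries also serve as the comparison for dcl1234, ZmUBQ and RUBY_3Q below, so these results are not independent of each other.

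In dcl1234 leaves AGL20 had 13021 to 43207 (median 26782, n = 8). The always red Col-0 leaves had 23622 to 153830 (median 91343, n = 11), and the pooled difference was -1.38 ± 0.40. Groups overlapped, as for all but 5% of the 60 tested targets, while the median difference of the other targets was 0.38. The result rested on the numbering set of the Col-0 libraries. Against the 4 of the first set the difference was 0.02 ± 0.20 with overlap, where 37.5% of targets did not overlap. Against the 7 of the second set it was -2.19 ± 0.24, with every dcl1234 library below every Col-0 library, where 25.4% of targets did not overlap. The dcl1234 tables have their own numbers, so that genotype and numbering set cannot be told apart. Centred differences were below 0 in both cases, at -0.79 against the first set and -2.36 against the second. The 2 dcl1234 lines had similar medians, 28445 in MK072 (n = 3) and 25120 in MK073 (n = 5).

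Between promoters, ZmUBQ leaves had lower AGL20 signals than 35S leaves of the same colour on average, with differences of -0.67 ± 0.42 in always red, -0.24 ± 0.34 in fully red and -0.39 ± 0.42 in leaves that were fully green. All 3 pairs of groups overlapped, and the share of targets that did not overlap was 13.1%, 3.45% and 5.45% in the same order. The sign depended on the numbering set: against the first set ZmUBQ was above 35S by 0.73, 1.20 and 0.77, and against the second set the differences were -1.47, -0.88 and -1.31, in the same order. Mean centred values were below those of 35S leaves in each of these comparisons, with differences of -1.04 to -2.60. On that scale the groups of fully red and of fully green leaves overlapped when pooled and against the first set. They did not overlap in always red leaves, nor against the second set in any colour. The share of targets lying apart on the centred scale was not computed for these comparisons. The promoter and the numbering of the tables cannot be told apart.

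Leaves with the RUBY_3Q construct had 33007, 46025 and 49133 when always green, and 35785, 41568 and 62548 when always red. These groups overlapped, with a difference of -0.11 ± 0.30, where 19.6% of 46 targets did not overlap. On the centred scale the direction turned and the groups did not overlap, with a difference of 0.81 ± 0.25, while 28.3% of targets did not overlap on that scale. The summed signal of protein-coding targets, AGL20 included, was 74860 to 215580 in the always green and 179582 to 264123 in the always red leaves. The 2 pairs of RUBY_3Q leaves with both colours differed widely between pairs and little within them: replicate 1 had 14503 in the fully green and 11939 in the fully red leaf, and replicate 3 had 77931 in the fully green and 61091 in the fully red leaf. Against always red leaves with unmodified 35S::RUBY, always red RUBY_3Q leaves differed by -0.59 ± 0.42 (10.8% of 65 targets did not overlap), which was 0.81 against the first set and -1.39 against the second.

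The 6 always green RUBY_fs leaves had 23678 to 56067 (median 35532), and the always green RUBY_3Q leaves 33007 to 49133. The tables of both constructs are numbered in 1 run, and the difference was -0.24 ± 0.25, with overlap (1.89% of 53 targets did not overlap). Set against fully green 35S::RUBY leaves, RUBY_fs differed by -0.82 ± 0.44 (8.77% of 57 targets did not overlap), which was 0.33 against the first set and -1.75 against the second. Libraries labelled T1 had 18800 in a fully green leaf and 27987 in a fully red leaf of MK016, 5497 in an always green leaf of MK017 and 20201 in an always red leaf of MK034. The green Col-0 leaf library had 6779. The T1 always green library of MK017 was the lowest of all 112 leaf libraries.

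Ordered by median, the 15 leaf groups with at least 2 libraries ran from dcl1234 (26782) through the RUBY_fs, RUBY_3Q and ZmUBQ groups and 35S always green leaves (35532 to 50674) to the 35S fully red, fully green and always red leaves (81373 to 91343), green parts (97707) and red parts (104484). Each group overlapped with the next in this order. The order of the 35S groups rests on how the numbering sets are mixed in them. In the second set alone the medians were 104139 in fully red leaves, 111434 in red parts, 117688 in green parts, 130246 in fully green and 131965 in always red leaves. In the first set alone they were 25171 in always red, 27501 in fully red, 30248 in green parts, 33065 in fully green leaves and 42278 in red parts, all below the medians of the fully green and fully red ZmUBQ leaves. Over all 17 comparisons the groups overlapped in 16.

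**Figure D3:**
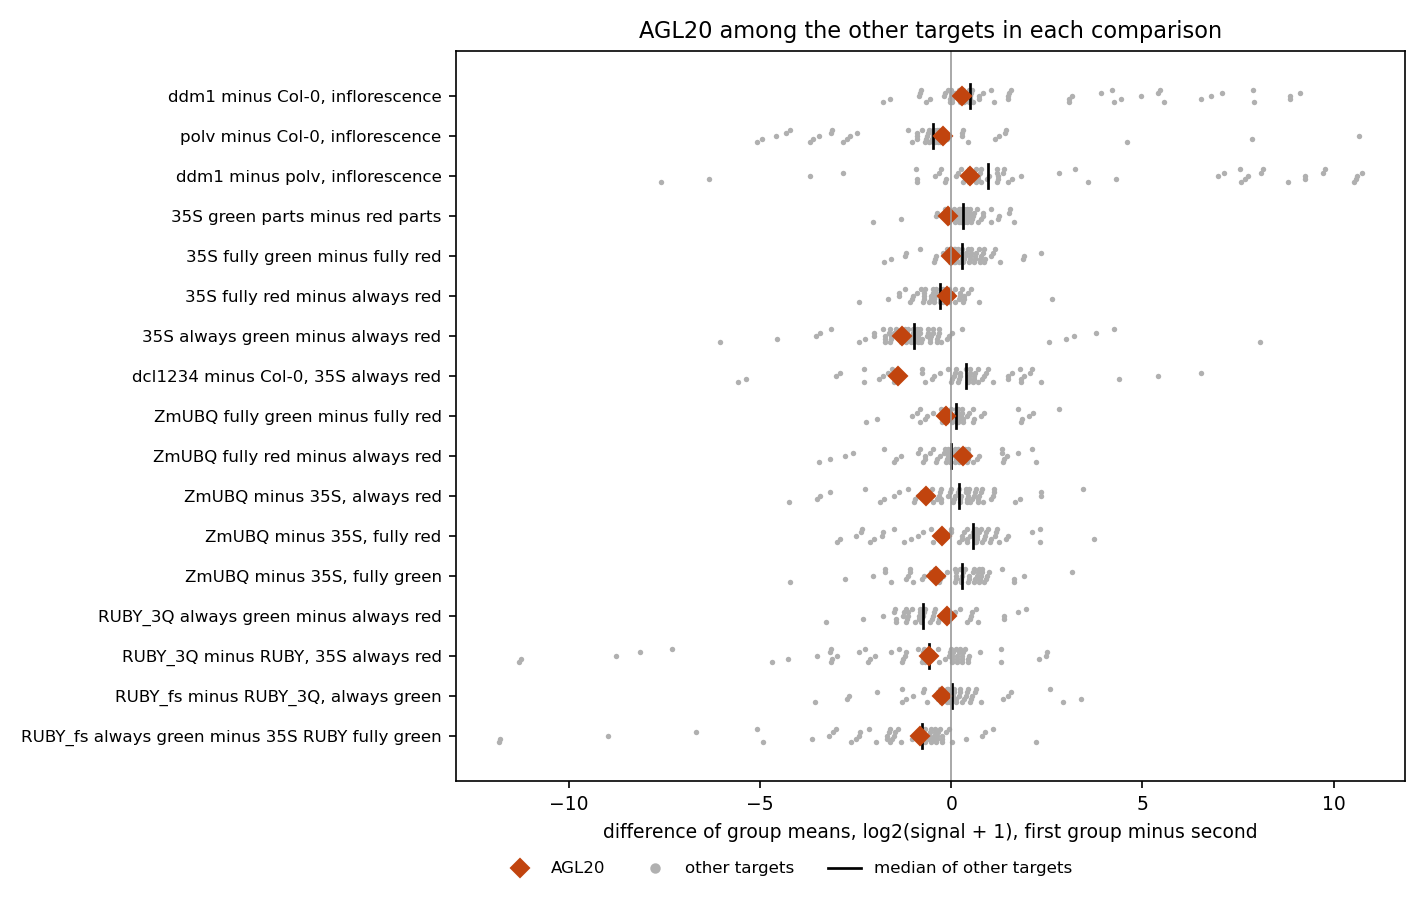
Difference of group means on the log2(signal + 1) scale for AGL20 (diamonds) and every other tested target (grey points) in each of the 17 comparisons, with the median of the other targets as a bar. AGL20 lies inside the cloud of other targets in each, farthest from 0 at -1.38 for dcl1234 against Col-0.

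In inflorescence, the AGL20 ranges of ddm1 and polv each overlapped that of Col-0. In collapsed reads ddm1 buds had 932, 920.0 and 912, against 985, 376 and 1202 in Col-0. The 3 ddm1 libraries lay close together inside the Col-0 range, and the difference was 0.27 ± 0.52 (32.3% of 65 targets did not overlap). The polv libraries had 601, 864 and 541, a difference of -0.22 ± 0.56 from Col-0 with overlap (35.6% of 59 targets did not overlap). The poliv/polv library had 965. Col-0 replicate 2 was the lowest library, and its summed signal of protein-coding targets was also low, at 247372 against 826806 and 697425 in the other 2. Without it the difference from Col-0 was -0.24 for ddm1 and -0.73 for polv.

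The ddm1 and polv libraries did not overlap, with a difference of 0.49 ± 0.20. This was the single comparison of the 17 in which AGL20 groups stood apart as deposited, and 66.2% of the 65 targets tested did so in it. The median of the other targets was 0.96, above the AGL20 value. On the scale centred on protein-coding targets the difference was -0.02 ± 0.12, and all 10 inflorescence libraries lay between 0.70 and 1.29. Relative to the summed signal of the other targets outside transgene and constructs, AGL20 was 1.07% to 1.31% in ddm1 and 1.74% to 1.98% in Col-0, without overlap, against 1.72% to 1.92% in polv. On this scale 58.3% of 60 targets did not overlap between ddm1 and Col-0. On the scale centred on protein-coding targets the ddm1 and Col-0 libraries overlapped, with a difference of 0.15 ± 0.10.

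**Figure D4:**
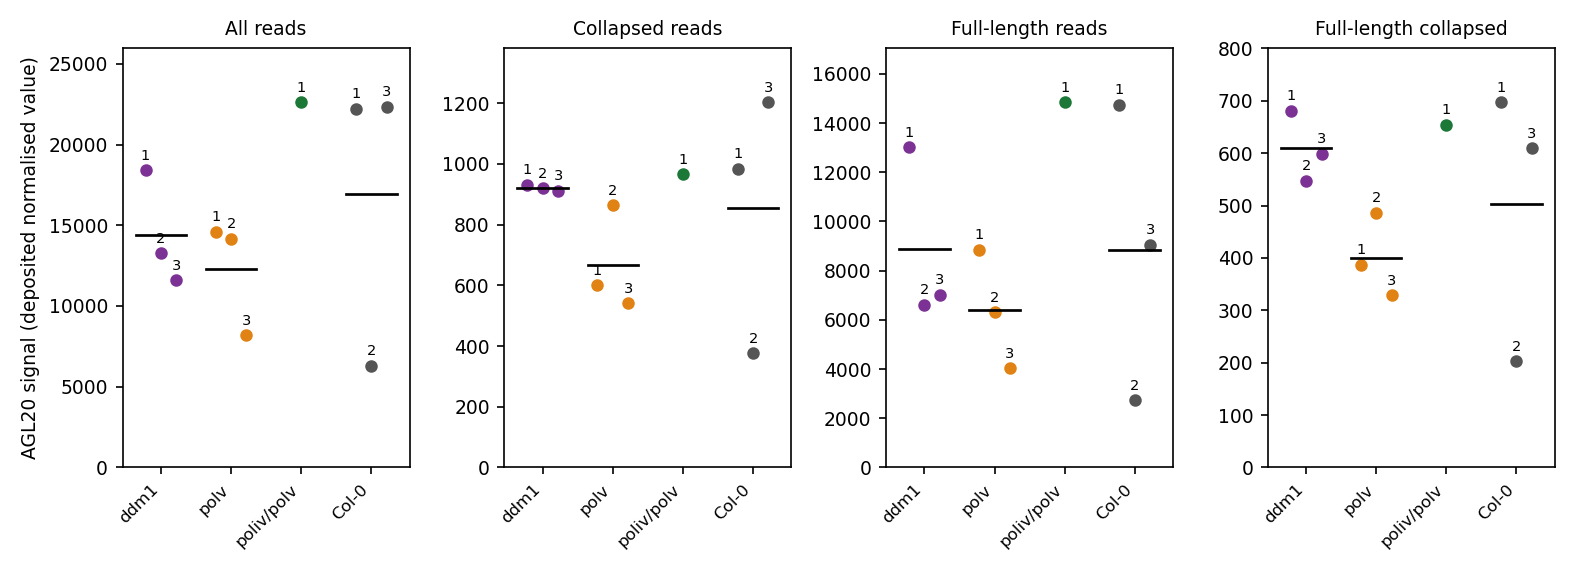
AGL20 signal in the 10 inflorescence libraries in the 4 kinds of table, from all reads to collapsed full-length reads; points carry the replicate number, and bars are means of 3 libraries. Col-0 replicate 2 is the lowest library in every table, and the ddm1 libraries lie closest together in collapsed reads, between 912 and 932.

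Reads marked pA made up most of the AGL20 sense signal in nearly every library. The share was 65.0% ± 6.16 (SD, n = 112) in leaf, with a range of 44.2% to 75.7%, and 62.9% ± 5.61 (SD, n = 10) in collapsed reads of inflorescence. By genotype it was 67.2% ± 4.87 in ddm1, 60.3% ± 2.26 in polv and 60.1% ± 7.55 in Col-0 (SD, n = 3 each). Among collapsed full-length inflorescence reads the share was higher and tighter, at 81.7% ± 1.73 in ddm1, 81.5% ± 2.27 in polv and 82.1% ± 3.17 in Col-0.

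In all reads the direction of the AGL20 pA share by leaf colour differed between constructs, while the mean RUBY share was lower in green tissue of each construct that has both colours. In green parts it was 63.7% ± 5.83 and in red parts 62.7% ± 6.84 (SD, n = 13 each), with a mean pair difference of 1.03 points and a higher share in the green part in 8 of 13 pairs. The RUBY share averaged 37.2% ± 13.3 in green parts and 68.7% ± 8.25 in red parts, and was lower in the green part in 13 of 13 pairs. In fully green leaves the AGL20 share was 67.8% ± 4.79 (n = 9), against 60.6% ± 6.20 in fully red leaves (n = 13). It was higher in the fully green leaf in 8 of 9 pairs, by 6.60 ± 5.29 points (SD), while the RUBY share was lower in 9 of 9. Collapsed full-length reads did not show this direction throughout, and several of the same pairs went the other way. There MK040 replicate 1 had 85.8% in the fully green and 80.9% in the fully red leaf. MK016 replicate 3 had 79.1% in the fully green and 82.9% in the fully red leaf. In all reads ZmUBQ leaves did not have a higher AGL20 share when green. They had 62.5% ± 8.36 in leaves that were fully green and 66.1% ± 5.88 in those fully red (SD, n = 9 each), with a higher share in the fully green leaf in 3 of 9 pairs. In all reads of RUBY_3Q leaves the AGL20 share was 68.8% to 70.8% in always green and 72.4% to 74.7% in always red leaves. These groups did not overlap, with a difference of -3.36 ± 0.91 points, where 34.2% of 38 targets did not overlap in pA share. The RUBY share there averaged 19.3% in always green and 62.5% in always red leaves. In collapsed full-length reads the AGL20 shares overlapped, at 69.0% to 72.2% in always green and 68.6% to 70.4% in always red RUBY_3Q leaves. The AGL20 share also moved with the numbering set, in all reads at 61.7% ± 4.34 in the second (n = 40) and 67.2% ± 7.19 in the first (n = 21). In collapsed full-length reads the sets did not overlap, at 61.9% to 69.6% in the second and 78.5% to 85.8% in the first. The share of other targets that do so on this measure was not computed.

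**Figure D5:**
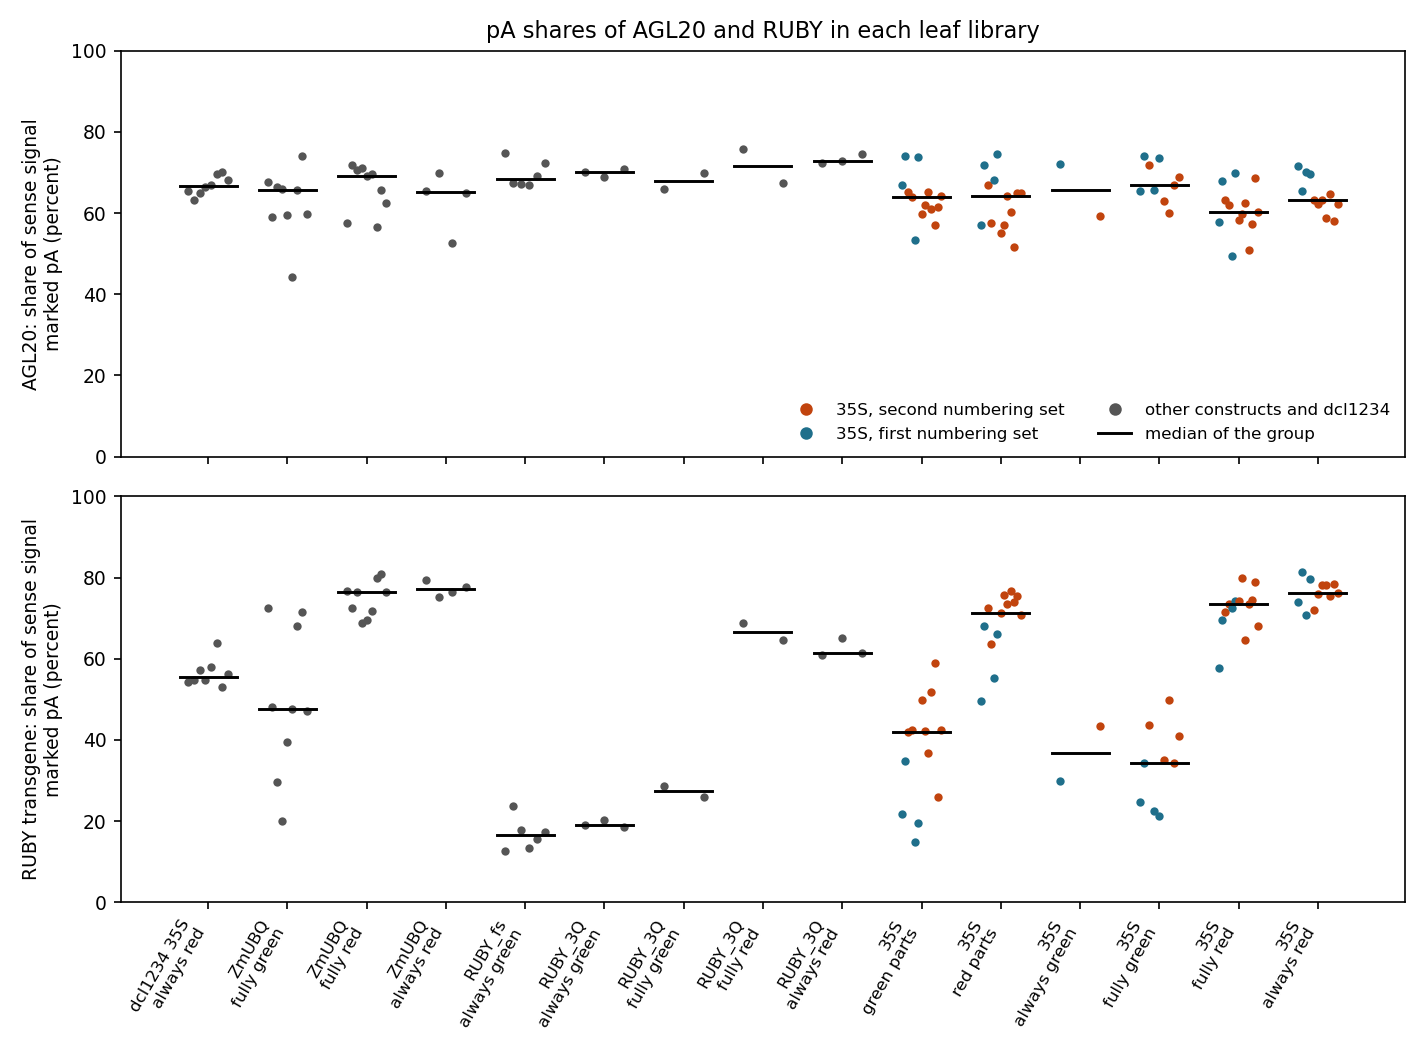
Share of sense signal marked pA for AGL20 (top) and RUBY (bottom) in each leaf library, by group, with group medians as bars. AGL20 medians stay between 60.2% and 72.8% in all 15 groups, whereas RUBY medians run from 16.5% in RUBY_fs to 77.1% in always red ZmUBQ leaves.

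Antisense reads were rare. They made up 0.47% ± 0.83 of AGL20 signal in the 92 leaf libraries whose tables give both strands (median 0.08%, highest 4.20%), and 1.13% ± 0.65 in the 10 inflorescence libraries. By genotype the inflorescence share was 1.37% ± 0.52 in ddm1, 0.55% ± 0.56 in polv and 1.47% ± 0.76 in Col-0. A single polv library had 0 of 744 collapsed reads, which allows a share of up to 0.403%. Libraries at 0 in leaf were always green MK017 replicate 2, dcl1234 MK073 replicate 3 and fully green ZmUBQ MK056 replicate 1. Counted in all reads, these allow shares of up to 0.0228%, 0.0131% and 0.0154%, in the same order. Copies of 1 molecule count separately there, so limits from collapsed reads, as used for polv, would be wider. These leaf libraries held 465, 918 and 464 collapsed full-length AGL20 reads. All of these limits cover counting error only. In dcl1234 leaves the share was 0% to 0.16% (median 0.02%). Colour groups of the 35S leaves had medians of 0.06% to 0.39% and overlapped. The share was 0.17% ± 0.36 in the second numbering set and 1.20% ± 1.07 in the first, and what part the numbering set has in the shares by colour was not tested. Strand was taken as the tables give it.

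Collapsed full-length reads amounted to 3.46% ± 1.27 of the all-read AGL20 signal in leaf (SD, n = 112) and 3.51% ± 0.77 in inflorescence (n = 10). In 35S leaves the value was 3.02% ± 0.55 in the second set and 5.16% ± 0.99 in the first. By colour it was 3.73% ± 1.09 in green parts and 3.61% ± 1.47 in red parts, and 4.17% ± 1.41 in leaves that were fully green and 3.58% ± 1.24 in those fully red. ZmUBQ leaves had 3.48% ± 0.49 when fully green and 2.83% ± 1.11 when fully red. In dcl1234 leaves it was 4.86% ± 0.57 (n = 8), and the RUBY_fs and RUBY_3Q groups had means of 1.85% to 2.34%. In inflorescence ddm1 had 4.33% ± 0.75, polv 3.37% ± 0.69 and Col-0 3.03% ± 0.27, and the ddm1 and Col-0 values did not overlap, as for 31.1% of the 45 targets with this measure.

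Libraries with the same line and number were then set side by side across tissues, which asks whether a unit that is high in one tissue is high in another. The labels do not say that a shared number marks 1 plant. Because the numbering sets form separate clusters, correlations of log2 signal are given only within a set or promoter that holds at least 6 pairs, and as descriptions without a p, since these levels were used in choosing AGL20. Green and red parts of the second set gave a Pearson r of 0.60 and a Spearman rho of 0.53 over 9 pairs. Without the 2 pairs farthest from the median of green parts r was 0.73, and on the centred scale it was 0.30. Red parts and fully red leaves of the second set gave r = 0.16 and rho = 0.20 over 9 pairs, and ZmUBQ fully green and fully red leaves gave r = 0.31 and rho = 0.28 over 9 pairs. For these 2 relations r was -0.12 and -0.29 without the 2 farthest pairs, so both signs turned. The other 2 relations had 5 pairs in the second set and 4 in the first, too few for a correlation.

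Over the 112 leaf libraries, centred as above, 44 targets could be ranked by how closely they followed AGL20. These correlations describe libraries that share numbering sets, depth and construct, and carry no p. The closest were AT5G38850 (Spearman rho 0.83, Pearson r 0.81), AT5G43730 (rho 0.82, r 0.81), AT5G43740 (rho 0.80, r 0.77) and the transposon AT5TE63500 (rho 0.78, r 0.74), which the tables place at the AT5G43740 locus. All 4 are in the class that the tables call phasiRNA, loci of phased small RNAs. Other targets of that class were spread over the ranking, from rho 0.78 down to 0.24. The median rho of the 44 targets was 0.43. Within the second set alone (n = 40) the 4 had rho 0.65, 0.77, 0.76 and 0.75, and within ZmUBQ leaves (n = 22) 0.50, 0.51, 0.58 and 0.43, in the same order. Targets of other classes reached rho 0.72 in the second set and 0.79 in ZmUBQ leaves, the latter above all 4. The least alike were the protein-coding target AT1G06000 and AT1G06002, which the tables place at the same locus, with rho -0.51 and -0.54. Within the second set their rho was -0.45 each, and within ZmUBQ leaves 0.16 each. In values as deposited over all leaf libraries their rho was 0.11 each. The negative sign therefore depends on centring and on the libraries used.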

How the data were processed

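The authors deposited, per library, tables of normalised signal per target for all reads, and for full-length reads collapsed by molecular identifier; inflorescence also has tables of collapsed reads and of full-length reads. Per the labels' protocols, total RNA was ligated to a 3' adapter, reverse transcribed with template switching, barcoded, pooled, captured with biotinylated probes and sequenced on nanopores; the submitters' processing notes name cutadapt and TAIR10, and the normalisation is not given in the sources used here. The deposited signal is split by strand and by reads marked pA; 20 leaf tables of all reads give sense columns only, and beside them the authors' deposited percent columns, which were not used. Shares in percent were computed here from signal.

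Group means were compared on log2(signal + 1), with the collapsed reads for inflorescence and all reads for leaf. AGL20 and the gene lists were chosen with earlier results of these data known, so AGL20 levels and shares carry no p. A target was compared when the number of libraries in which it was above 0 reached the size of the smaller group, and the share of them whose groups do not overlap is given as background. The worth of 1 read was found per library as the step that makes all values whole within 0.005. Correlations between libraries sharing a line and number (Python 3.11.15, numpy 2.4.6, scipy 1.17.1) had been planned over all pairs with a permutation test; they were restricted to numbering sets once these were seen, and no p is given because the same levels were used in choosing AGL20. Named targets are the 4 most and 2 least like AGL20 by Spearman rho among targets above 0 in 80% of leaf libraries. The same-line numbers were checked as pairs: r was 0.60, 0.16 and 0.31 in the 3 relations. Lettuce tables were left out of comparisons. The symbol AGL20 and its synonyms are from RefSeq, assembly TAIR10.1.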

Additional observations from a re-analysis of the deposited data

Results flagged for a closer look

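In 3 groups of 9 libraries 1 value of AGL20 stood apart from the others by Dixon's criterion at the 95% level, which chance meets in about 1 of 20 groups. More than 1 measure was checked per group and the number of checks is not given, so this rate cannot judge the flags. The 35S groups of 11 and 13 libraries were too large for the criterion as set here. The antisense share was 2.27% in the fully green 35S leaf of MK016 replicate 3, where the red parts (3.42%) and the fully red leaf (3.64%) of the same line and number were higher and the mean of its numbering set was 1.20%. It was 4.20% in the fully red ZmUBQ leaf of MK056 replicate 1. The pA share was 44.2% in the fully green ZmUBQ leaf of the same line and replicate, MK056 replicate 1.

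In lettuce, whose tables were not used in any comparison, AGL20 was listed at 1099.6 in the fully green 35S leaf of Ls608 replicate 1, or 236 reads. The fully green library held 30 distinct values above 0 over all its targets, against 4 to 9 in each other lettuce library. The extra values were therefore not confined to AGL20. AGL20 was 0 in the fully red leaf labelled with that line and replicate. For both libraries the replicate number in the table's own name differs from that in the label. The median of the 36 lettuce libraries was 9.14, and 14 were at 0.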

How the results depend on the processing

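Of 205 recomputed group differences (log2 scale), 186 moved by less than 1 SD of the replicates and 172 kept their sign; both pseudocounts, sense reads, reads marked pA and line means moved none by more. Relative to the summed signal of the other targets outside transgene and constructs, transposons included, ddm1 minus Col-0 was -0.61 and ddm1 minus polv -0.61. On the same scale ZmUBQ minus 35S in fully red leaves was -1.24 and RUBY_3Q always green minus always red 0.61. Centred on protein-coding targets, ddm1 minus polv was -0.0157, ZmUBQ minus 35S -2.03 (always red), -1.76 (fully red) and -1.60 (fully green), and RUBY_3Q always green minus always red 0.81. Against 35S libraries of the first set, dcl1234 differed by 0.0174, ZmUBQ by 0.73, 1.20 and 0.77 in that order, RUBY_3Q by 0.81 and RUBY_fs by 0.33; against the second, fully green ZmUBQ leaves differed by -1.31. In collapsed full-length reads ZmUBQ fully green minus fully red was 0.23. Always green minus always red 35S leaves gave 0.10 without always green MK017 replicate 1 and -2.69 without replicate 2. The cause was not tested. Without the 2 farthest pairs the correlations turned to -0.12 (35S red parts with fully red) and -0.29 (ZmUBQ), and to -0.13 for deviations from ZmUBQ line means. With line and number as a replicate block, fully green minus fully red 35S leaves differed by 0.34; the replicate block left the inflorescence differences at 0.27, -0.22 and 0.49. The numbering set of the 35S libraries turned the sign of the dcl1234 difference, the 3 ZmUBQ minus 35S differences and those of RUBY_3Q and RUBY_fs from 35S::RUBY.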
